A study of Mus musculus with 12 samples.

Results

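Ventricles of mouse embryos without Hdac2 and Hopx (double-null) were set against ventricles of embryos without Hopx (Hopx-null), which asks what the loss of Hdac2 does to gene expression where Hopx is already absent. The comparison used the 3 double-null and 3 Hopx-null arrays among the 12 arrays of the series, and covered the 9662 genes that could be tested among the 18194 genes on the array. A gene was tested if its signal passed a filter on dim genes and lay above a low floor on at least 1 array. The other 6 arrays, 3 Hdac2-null and 3 wild-type, entered the estimate of the spread but not the difference. Hdac2-null against wild-type is the same loss where Hopx is present, and it shares no array with double-null against Hopx-null.

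All embryos were at embryonic day 16.5 and the tissue was the cardiac ventricle. The double-null and Hopx-null groups share the loss of Hopx, and the double-null and Hdac2-null groups share the loss of Hdac2. The labels give a genotype for each group but no strain, allele, promoter or Cre driver, and do not say whether a gene was lost in all cells or in some. Each array is described as an independent sample, and nothing further is said of litters.

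Hdac2 is a class I histone deacetylase, an enzyme that removes acetyl groups from histones and other proteins and works inside large corepressor complexes such as Sin3, NuRD and CoREST. Hopx is a small homeodomain protein that does not bind DNA itself and is known in the heart for acting on transcription through partners, Hdac2 among them. Loss of a histone deacetylase can raise genes that such complexes keep low, including genes that belong to other tissues. In the fetal ventricle the transcription factor Gata4, the contractile genes and the genes of the cell cycle are the settings in which these proteins have been studied.

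Of 45101 probe sets on each array, 37.5% to 37.88% lay above the floor of 82.85 signal units. Signals below it were raised to it before log2 transformation, so a log2 fold change of a dim gene understates the difference. The log2 ratio of 3′ to 5′ signal of the Gapdh control probe sets, a sign of RNA quality, was 0.987 to 1.075 on double-null and 0.924 to 1.04 on Hopx-null arrays. For the actin control probe sets this ratio was larger, at 2.658 to 2.795 on double-null and 2.694 to 2.788 on Hopx-null arrays. Among the arrays that enter only the spread and the pair with Hopx present, wild-type replicate 1 stood apart in the Gapdh ratio at 1.328, against 0.842 to 1.075 on the other 11 arrays. Hdac2-null replicate 3 stood apart in the liver genes Alb (176.2 units) and Afp (204.6 units), which were at most 4.59 and 33.0 units on the other 11. Without either array, Hdac2 and Tnni2 were still the 2 genes called in Hdac2-null against wild-type ventricles, and the effect on double-null against Hopx-null is given beside Tnni2. Xist, the RNA that marks the inactive X chromosome, had 5894, 4.05 and 22.2 units on double-null arrays and 4988, 8.68 and 8.70 units on Hopx-null arrays, so 1 array in each group was high. In the pair with Hopx present, Xist was high on 1 Hdac2-null array (6108 units) but on 2 wild-type arrays (6016 and 6130 units). All 13 markers of ventricular cardiomyocytes lay above the floor, with a median log2 fold change of -0.0023. The 9 lung epithelium, 10 thymus, 6 fat and 10 skeletal myogenic markers on the array were at or below the floor on all 6 arrays, and so were 9 of 10 liver markers.

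Hdac2 was at background in every double-null ventricle. Its signal was 4.07, 4.06 and 4.32 units on double-null arrays, against 5683, 4442 and 4586 units on Hopx-null arrays. Every double-null array was below the floor and every Hopx-null array far above it, which makes Hdac2 at least 58.8-fold lower (log2 fold change -5.88, SE 0.11, limma adjusted p = 8.29e-11). A second probe set of Hdac2 gave 4.83 ± 0.0141 units in double-null and 3209 ± 288 units in Hopx-null ventricles (SD, n = 3 each). The dimmest averaged 4.36 units in double-null and 29.8 units in Hopx-null ventricles, below the floor in both. The targeted gene therefore matches the labels on all 6 arrays.

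Hopx, lost in both groups by label, kept a signal on 1 of its probe sets. That probe set read 1728, 1715 and 1656 units on double-null arrays and 1865, 2046 and 2066 units on Hopx-null arrays, while Hdac2-null ventricles averaged 12040 ± 317 units and wild-type ventricles 9817 ± 2080 units (SD, n = 3 each). The groups did not overlap, with a log2 fold change of -0.23, SE 0.11, and limma adjusted p = 0.621. The other Hopx probe set was below the floor on all 6 arrays, at 9.71 ± 0.0111 units in double-null and 11.9 ± 1.94 units in Hopx-null ventricles. Which part of the gene was deleted is not given in the labels, so the signal that remains checks only that the level is low.

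**Figure D1:**
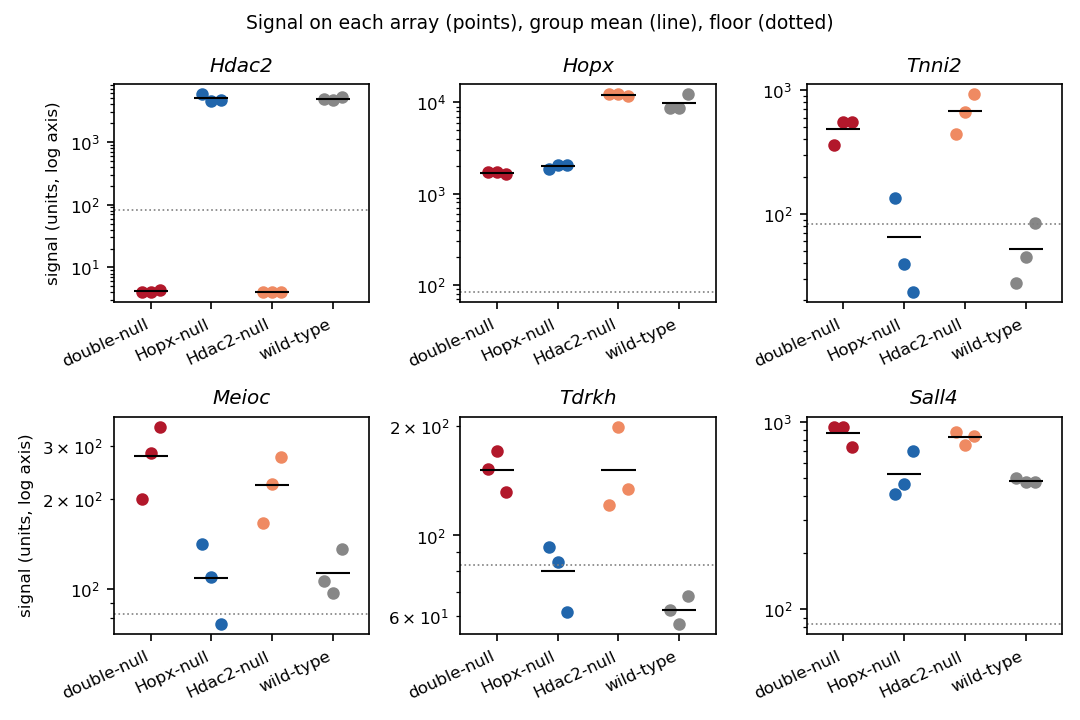
Signal of 6 genes on each of the 12 arrays on a log axis, by genotype: each point is an array, the bar is the mean of 3 and the dotted line is the floor of 82.85 units. Hdac2 lies near 4 units on all 3 double-null arrays and at 4442 units or more on all Hopx-null arrays, and Tnni2, Meioc, Tdrkh and Sall4 lie higher on every double-null than on every Hopx-null array.

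Adding the loss of Hdac2 to the loss of Hopx changed 2 genes at an adjusted p under 0.05, which is 0.0207% of the 9662 genes tested. They were Hdac2 itself, lower, and Tnni2, a troponin I of fast skeletal muscle, higher (0.0103% in each direction). Before adjustment, 784 genes had a p under 0.05 (8.11%), of which 301 were higher (3.12%) and 483 lower (5%) in double-null ventricles. The groups did not overlap for 598 genes that were higher on all 3 double-null arrays (6.19%) and for 788 that were lower (8.16%). By sign alone, 4525 genes were higher (46.8%) and 5064 lower (52.4%), and the median log2 fold change over all tested genes was -0.0071.

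The typical standard error of a log2 fold change was 0.11, so a gene had to differ well beyond that to be called. The counts at an unadjusted p under 0.05 moved with single arrays. In all they were 1306 without Hopx-null replicate 3 (432 higher and 874 lower), 498 without double-null replicate 2 (187 higher and 311 lower) and 479 without double-null replicate 3 (222 higher and 257 lower). Without double-null replicate 1 or Hopx-null replicate 2 the lower genes were also the more numerous, at 473 and 334 against 306 and 269 higher. Without Hopx-null replicate 1 there were 372 higher and 364 lower, and without the array of high Xist in each group 359 higher and 335 lower. These last 2 settings kept Hdac2 and Tnni2.

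**Figure D2:**
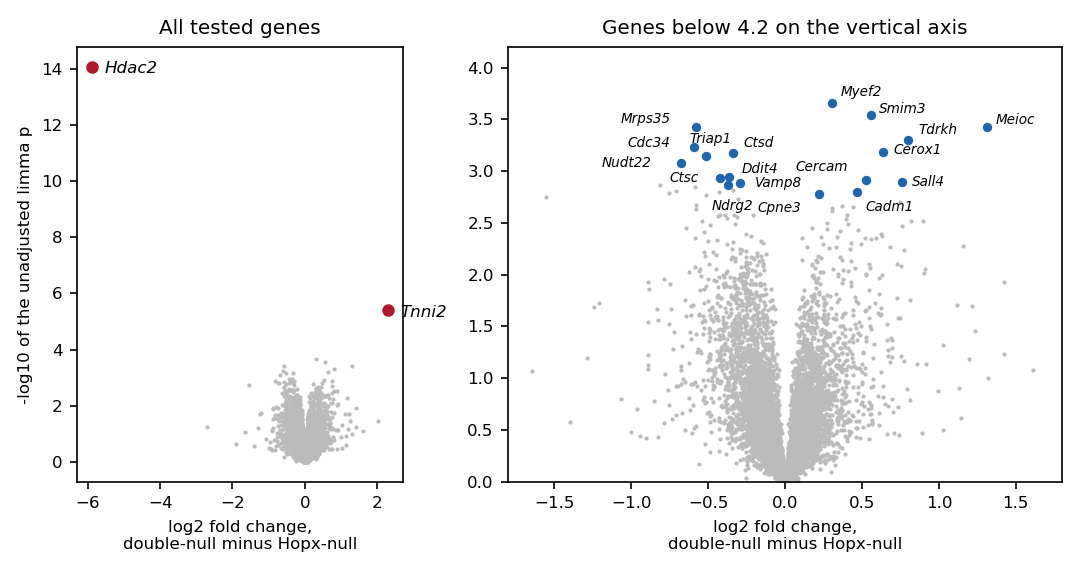
Log2 fold change of double-null minus Hopx-null against the -log10 of the unadjusted limma p for 9662 genes, in full on the left and without Hdac2 and Tnni2 on the right. Red points passed an adjusted p under 0.05 (2 genes), and blue points are the other named genes of smallest p in each direction, none of which passed.

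Tnni2 encodes the inhibitory subunit of the troponin complex in fast skeletal fibres. Its signal was 363.8, 551.3 and 549.9 units on double-null arrays, against 133.7, 39.1 and 23.3 units on Hopx-null arrays. The lowest double-null array was above the highest Hopx-null array, and 2 of the 3 Hopx-null arrays were below the floor. On the floored scale this is a 4.94-fold difference (log2 fold change 2.30, SE 0.27, limma adjusted p = 0.0196). In the pair with Hopx present, Tnni2 had 438.9, 664.8 and 925.7 units in Hdac2-null ventricles and 27.7, 45.0 and 84.6 units in wild-type ventricles, a log2 fold change of 2.95 with limma adjusted p = 0.00168. That call was lost with no floor (limma adjusted p = 0.283) and with the mean of its probe sets (limma adjusted p = 0.118). The difference between the log2 fold changes with Hopx absent and present was -0.65 (SE 0.39, unadjusted p = 0.121, limma adjusted p = 0.944).

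The call of Tnni2 depended on the arrays and on the floor. The adjusted p was 0.178 without Hopx-null replicate 2, 0.12 without Hopx-null replicate 3, 0.169 without double-null replicate 2 and 0.113 without double-null replicate 3. It was 0.0603 and 0.0549 without wild-type replicate 1 or 2, and 0.0533 without Hdac2-null replicate 2, arrays that enter only the spread. Without the other arrays of the spread the limma adjusted p stayed under 0.05. It was 0.0361 without wild-type replicate 3, and 0.00636 and 0.0093 without Hdac2-null replicate 1 or 3. The log2 fold change stayed between 0.85 and 3.27 over 23 alternatives. A second Tnni2 probe set was dimmer, at 97.0 ± 21.1 units in double-null and 41.2 ± 14.7 units in Hopx-null ventricles (SD, n = 3 each). Its groups did not overlap before flooring, but double-null replicate 1 (77.5 units) and every Hopx-null array lay below the floor. On the floored scale it was therefore not separated, and it did not pass (adjusted p over all probe sets = 0.765). Its dimmest probe set lay near 4.5 units in both groups.

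No other gene of fast skeletal muscle was called. Of 27 on the array, 19 were at or below the floor on all 6 arrays, among them Tnnt3 and Tnnc2, the fast isoforms of the other troponin subunits, at 4.33 to 4.92 units on every array. Of the 8 that were tested, 2 were higher and 6 lower in double-null ventricles, with a median log2 fold change of -0.22, and Tnni2 was the 1 called. Tmem38a, an ion channel of the sarcoplasmic reticulum, had 1171, 1263 and 1204 units in double-null and 1822, 1953 and 1557 units in Hopx-null ventricles (log2 fold change -0.55, SE 0.18, limma adjusted p = 0.535). Acta1, skeletal alpha-actin, averaged 742.1 ± 203 units in double-null and 1314 ± 168 units in Hopx-null ventricles without overlap (SD, n = 3 each), but its log2 fold change of -0.86 had an SE of 0.58 (limma adjusted p = 0.716). Casq1, the skeletal muscle calsequestrin, had 3656, 4215 and 4282 units on double-null arrays and 3030, 3189 and 3421 units on Hopx-null arrays, and is named here after its values were seen. The skeletal myogenic cell markers were all at or below the floor, with summed signals of 45.4 to 46.2 units in double-null and 45.4 to 46.5 units in Hopx-null ventricles.

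Of the 10 genes of smallest p on the higher side, 3 belong to a list of germline and early embryo genes. Of 31 such genes on the array, 23 were at or below the floor on all 6 arrays and 8 were tested. Among those 8, 6 were higher and 2 lower in double-null ventricles, 4 were higher without overlap (6.19% of all tested genes were), and none passed an adjusted p under 0.05. The median of their log2 fold changes was 0.42, against -0.0071 over all genes, and 0.34 in Hdac2-null against wild-type ventricles. Because a gene passes the floor through the group in which it is high, the 8 tested genes do not stand for all 31. With a floor of 2 times 82.85 units the median was 0.0746.

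Meioc, which sustains meiotic prophase in germ cells, had 199.4, 283.8 and 348.3 units on double-null arrays, against 141.2, 109.7 and 76.3 units on Hopx-null arrays. The groups did not overlap (log2 fold change 1.31, SE 0.26, limma adjusted p = 0.535). In the pair with Hopx present it had 166.7, 224.2 and 276.8 units in Hdac2-null and 106.6, 97.1 and 136.2 units in wild-type ventricles, again without overlap.

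Tdrkh, a Tudor-domain protein of the piRNA pathway, had 152.6, 170.7 and 131.9 units on double-null arrays, against 92.8, 84.6 and 61.6 units on Hopx-null arrays. Its log2 fold change was 0.80 (SE 0.16, limma adjusted p = 0.535), and 0.84 in Hdac2-null against wild-type ventricles. All arrays of either null-Hdac2 group were above every array with Hdac2, but the signal is close to the floor, and with a floor of 2 times 82.85 units the log2 fold change was 0.01.

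Sall4, a zinc-finger transcription factor of pluripotent and germ cells that also acts in heart development, had 942.6, 933.4 and 736.2 units on double-null arrays, against 414.2, 465.1 and 695.1 units on Hopx-null arrays. Hopx-null replicate 3 came close to the lowest double-null array without reaching it (log2 fold change 0.76, SE 0.18, limma adjusted p = 0.535). In the pair with Hopx present, Sall4 averaged 826.7 ± 66.6 units in Hdac2-null and 484.1 ± 12.4 units in wild-type ventricles (SD, n = 3 each).

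Rec8, a meiotic cohesin subunit, had 105.3, 193.5 and 25.4 units on double-null arrays and 56.5, 42.8 and 14.8 units on Hopx-null arrays, and these groups overlapped. The remaining tested members were smaller in difference. Rhox5, a homeobox gene of the reproductive tract, had 204.5, 208.2 and 239.5 units on double-null arrays and 189.1, 200.1 and 138.7 units on Hopx-null arrays, and is named after its values were seen. Ddx4, Dazl, Pou5f1, Stag3 and other defining genes of germ cells and pluripotent cells were below the floor on all 6 arrays, from 4.47 to 29.5 units.

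Among the 10 genes of smallest p in each direction, some were separated in the same direction in both pairs. Of these, 7 are in the table of promoters, which gives the 250 bases before a transcript's start. In 5 of them (Hdac2, Meioc, Cerox1, Cercam and Nudt22) fewer than 150 of those bases lay outside every annotated gene, and these are not shown. The stretches before Tdrkh, from the higher side, and Ctsc, a lysosomal protease from the lower side described below, are shown up to the first annotated base of the gene, by a rule chosen after the values were seen. They are given 5′ to 3′ on the plus strand, from RefSeq on GRCm38.p6, and capitals mark CG dinucleotides, the sites of DNA methylation in mammals.
Tdrkh, chr3:94412994-94413242: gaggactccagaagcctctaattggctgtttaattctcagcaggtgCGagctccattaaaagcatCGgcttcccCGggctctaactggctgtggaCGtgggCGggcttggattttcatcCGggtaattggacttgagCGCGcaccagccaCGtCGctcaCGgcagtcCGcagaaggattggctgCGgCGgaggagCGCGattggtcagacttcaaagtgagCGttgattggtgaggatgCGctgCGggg
Ctsc, chr7:88277835-88278023: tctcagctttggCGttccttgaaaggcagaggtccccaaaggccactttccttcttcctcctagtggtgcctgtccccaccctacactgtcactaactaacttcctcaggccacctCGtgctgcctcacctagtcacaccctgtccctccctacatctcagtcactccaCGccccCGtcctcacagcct
CG dinucleotides numbered 19 in the 249 bases before Tdrkh, against a median of 6 over the same stretch of 32817 promoter windows, of which 80.3% had fewer. The 189 bases before Ctsc held 4, against a median of 4, and 48% of windows had fewer. The core of the E2F site, TCCCGC or GCGGGA on either strand, was searched because E2F6 complexes keep germline genes silent in somatic cells. Neither stretch held it, while 16.8% and 12% of all windows did over those lengths. The absence says only that these letters are not in these bases.

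The other genes of smallest p on the higher side have no shared list, and none passed an adjusted p under 0.05 (limma adjusted p = 0.535 for each). Myef2, a repressor of the myelin basic protein gene, had 9778, 10580 and 10670 units on double-null arrays, against 8566, 7878 and 8701 units on Hopx-null arrays (log2 fold change 0.30, SE 0.06). A second probe set of Myef2 was 1389 ± 23.9 units in double-null and 895.7 ± 6.02 units in Hopx-null ventricles (SD, n = 3 each), a log2 fold change of 0.63 with an adjusted p over all probe sets of 0.211. Smim3, a small membrane protein, had 585.4, 646.9 and 577.4 units on double-null arrays and 383.3, 392 and 457.8 units on Hopx-null arrays (log2 fold change 0.56, SE 0.11). Both genes were separated by array here but overlapped in the pair with Hopx present.

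Cerox1, a long non-coding RNA known for raising mitochondrial complex I transcripts, was near the floor, at 136.9, 146.3 and 128.6 units on double-null arrays and 71.4, 99.8 and 64.9 units on Hopx-null arrays (log2 fold change 0.64, SE 0.14). Cercam, a cell adhesion molecule first described in brain endothelium, had 1303, 1124 and 1110 units on double-null arrays and 823.7, 826.8 and 795.9 units on Hopx-null arrays (log2 fold change 0.53, SE 0.12). Cadm1, an immunoglobulin-like adhesion molecule, had 1496, 1602 and 1839 units on double-null arrays and 1299, 1069 and 1200 units on Hopx-null arrays (log2 fold change 0.47, SE 0.11). These 3 genes were separated in the same direction in Hdac2-null against wild-type ventricles. Cpne3, a calcium-dependent phospholipid-binding protein, averaged 8699 ± 554 units in double-null and 7445 ± 181 units in Hopx-null ventricles (SD, n = 3 each). A second Cpne3 probe set overlapped, at 529.5 ± 51.4 and 499.7 ± 52.7 units (log2 fold change 0.08). In the pair with Hopx present the log2 fold change of Cpne3 was 0.0092 and the groups overlapped.

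On the lower side the genes of smallest p after Hdac2 differed by 1.23-fold to 1.6-fold, and none passed (limma adjusted p = 0.535 for each). Mrps35, a protein of the mitochondrial ribosome, had 2351, 2328 and 2296 units on double-null arrays, against 3637, 3563 and 3251 units on Hopx-null arrays (log2 fold change -0.58, SE 0.12). Cdc34, a ubiquitin-conjugating enzyme, had 942.5, 938.1 and 852.7 units on double-null arrays, against 1499, 1416 and 1220 units on Hopx-null arrays (log2 fold change -0.59, SE 0.12). Nudt22, a hydrolase of UDP-sugars, had 472.7, 395 and 371.7 units on double-null arrays, against 716.8, 706.8 and 558.8 units on Hopx-null arrays (log2 fold change -0.68, SE 0.15). The double-null arrays were lower in every case, without overlap.

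Ctsd, a lysosomal aspartic protease, had 3665, 3925 and 3733 units on double-null arrays, against 4938, 4918 and 4458 units on Hopx-null arrays (log2 fold change -0.34, SE 0.07). Ctsc, the lysosomal dipeptidyl peptidase, had 447.5, 446.6 and 471 units on double-null arrays, against 651, 599.8 and 583 units on Hopx-null arrays (log2 fold change -0.42, SE 0.10). Ctsc was also separated in the pair with Hopx present, at 448.4 ± 41.4 units in Hdac2-null and 636.7 ± 27.8 units in wild-type ventricles (SD, n = 3 each). Vamp8, a SNARE protein of endosomes and lysosomes, averaged 1735 ± 19 units in double-null and 2130 ± 117 units in Hopx-null ventricles.

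Ddit4, an inhibitor of mTORC1 signalling that hypoxia and stress induce, had 3702, 3617 and 3602 units on double-null arrays, against 4599, 4790 and 4682 units on Hopx-null arrays (log2 fold change -0.37, SE 0.08). The arrays within each group lay close together, and the adjusted p fell under 0.05 without wild-type replicate 3 (limma adjusted p = 0.0361). Triap1, a small mitochondrial protein of phospholipid transfer that p53 induces, averaged 576.8 ± 77.3 units in double-null and 819.9 ± 31.2 units in Hopx-null ventricles. Ndrg2, a stress-responsive gene that Myc represses, averaged 3943 ± 72.4 units in double-null and 5101 ± 303 units in Hopx-null ventricles (SD, n = 3 each).

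**Figure D3:**
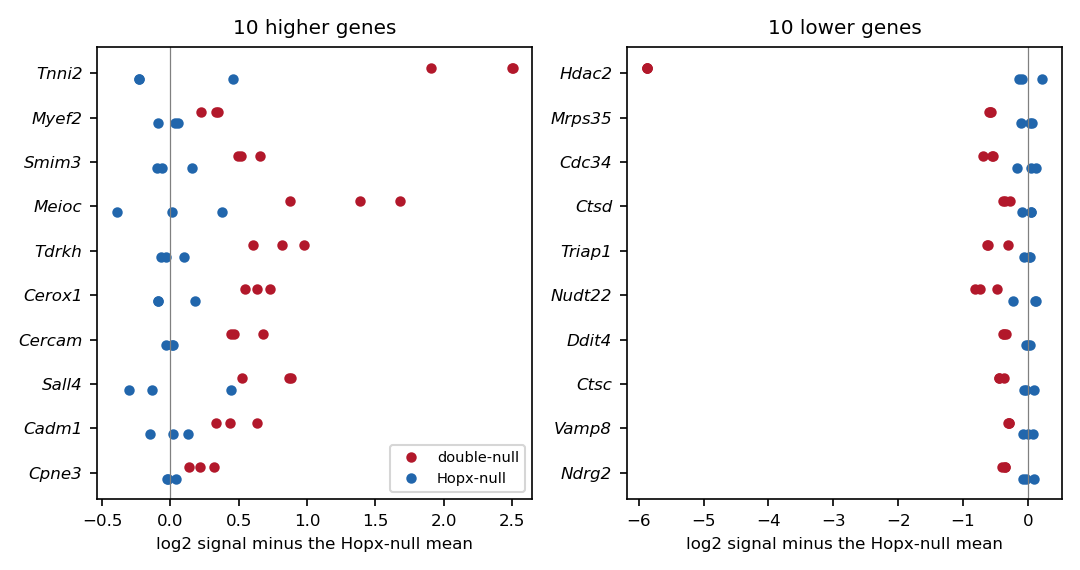
Log2 signal (floored) minus the mean of the Hopx-null arrays for the 10 higher and the 10 lower genes of smallest p, with each point an array. In every gene the 3 double-null points lie on 1 side of the 3 Hopx-null points, and the genes were ordered by p, which also chose them.

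Hdac2-null against wild-type ventricles gave the same loss on 6 other arrays, which share with the first pair only the estimate of the spread. There too 2 genes were called (0.0207%), Hdac2 and Tnni2. All 10 of the named higher genes had the same direction in that pair, and 8 of the 10 lower ones did. Over all tested genes with a non-zero difference the share was 55%. It was 49.9% for all genes higher in the first pair and 59.7% for all lower ones. Of the 301 genes higher at an unadjusted p under 0.05, 201 had the same direction (66.8%), and of the 483 lower genes 315 did (65.2%). The named genes were chosen by p in the first pair. Without Tnni2, the other 9 higher genes had a median log2 fold change of 0.56 with Hopx absent and 0.44 with Hopx present. Without Hdac2, the other 9 lower genes had medians of -0.42 and -0.11, and Ctsd and Triap1 had the opposite sign.

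Of the 598 genes higher without overlap in double-null ventricles, 50 were also higher without overlap in Hdac2-null ventricles, 8.36% of the first set and 13.3% of the second. Of the 788 lower genes, 60 were also lower without overlap, 7.61% of the first set and 10.9% of the second. In Hdac2-null against wild-type ventricles 3.89% of all tested genes were higher and 5.68% lower without overlap. Genes separated in opposite directions numbered 17 for the higher set and 16 for the lower. Of the 10 named higher genes, 7 were separated in both pairs (Tnni2, Meioc, Tdrkh, Cerox1, Cercam, Sall4 and Cadm1), and of the 10 lower genes 3 were (Hdac2, Nudt22 and Ctsc).

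**Figure D4:**
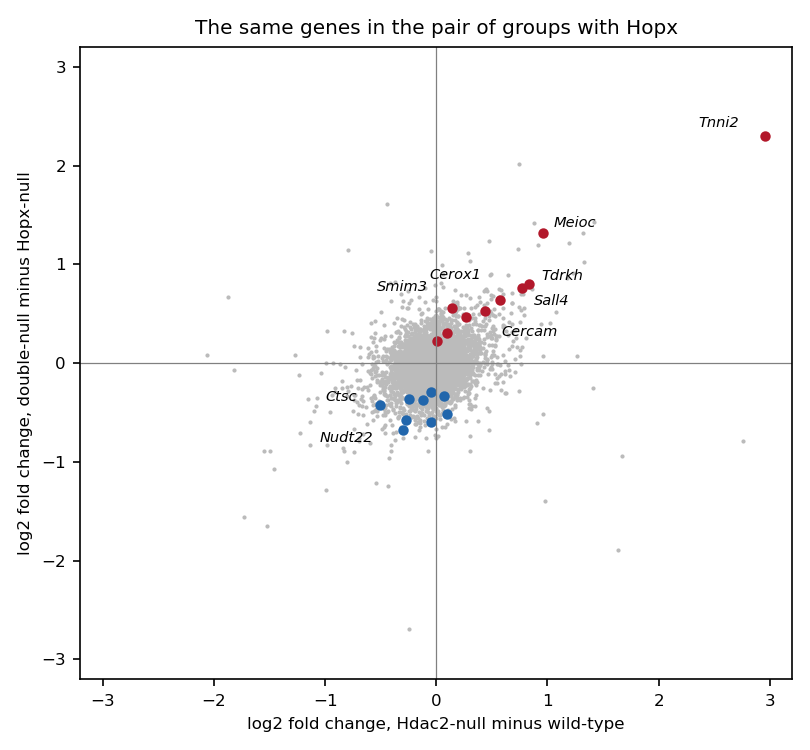
Log2 fold change of Hdac2-null minus wild-type (horizontal) against double-null minus Hopx-null (vertical) for each tested gene except Hdac2, with the named higher genes in red and lower genes in blue. Tnni2 is far from the origin in both pairs, at 2.95 and 2.30, and the named lower genes lie between -0.51 and 0.09 on the horizontal axis.

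Whether the loss of Hdac2 acted differently with Hopx absent and present was tested gene by gene as the interaction of the losses. No gene was called in limma (0%), and 397 had an unadjusted p under 0.05 (4.11%). Some named genes were separated in opposite directions in the 2 pairs. Emcn, the endothelial surface protein endomucin, averaged 1300 ± 104 units in double-null and 1591 ± 146 units in Hopx-null ventricles, and 1751 ± 107 units in Hdac2-null and 1440 ± 92.3 units in wild-type ventricles (SD, n = 3 each). Its interaction was -0.57 on the log2 scale (unadjusted p = 0.00142, limma adjusted p = 0.944). Irx2, an Iroquois transcription factor of the ventricle, averaged 290.9 ± 74.2 units in double-null and 390.6 ± 19.4 units in Hopx-null ventricles, and 446 ± 66 units in Hdac2-null and 324.3 ± 42.6 units in wild-type ventricles (interaction -0.92, limma adjusted p = 0.944).

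No other histone deacetylase was called. Of 11 on the array 9 were tested, 4 of them higher and 5 lower, and the log2 fold changes of the 8 other than Hdac2 ran from -0.23 to 0.17. Hdac1, the closest relative of Hdac2 and its partner in the same complexes, had 3929, 3877 and 4242 units on double-null arrays and 4001, 3462 and 3594 units on Hopx-null arrays (log2 fold change 0.13, SE 0.08, limma adjusted p = 0.716). Hdac3, the catalytic subunit of the NCoR complex, averaged 201.4 ± 19.8 units in double-null and 236.8 ± 56.6 units in Hopx-null ventricles (SD, n = 3 each). Hdac8 was below the floor in both groups, at 5.77 to 5.92 and 5.76 to 7.82 units, and was not tested.

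Among 32 tested subunits of the complexes that hold Hdac1 and Hdac2, 21 were higher and 11 lower, with a median log2 fold change of 0.03, and none was called. Without overlap, 5 were higher and 1 lower, against 6.19% and 8.16% of all tested genes, but the count of 5 was between 1 and 7 over the alternatives that kept all 6 arrays. Sin3b, a scaffold of the Sin3 complex, averaged 4495 ± 132 units in double-null and 5107 ± 481 units in Hopx-null ventricles (log2 fold change -0.18, SE 0.07, limma adjusted p = 0.547). Other Sin3b probe sets above the floor gave log2 fold changes of -0.395, -0.24 and 0.06, the last with overlap. Suds3, another Sin3 subunit, averaged 2730 ± 18.6 units in double-null and 2492 ± 81.1 units in Hopx-null ventricles (SD, n = 3 each). A second Suds3 probe set overlapped, at 1818 ± 199 units in double-null and 1812 ± 183 units in Hopx-null ventricles (log2 fold change 0.0036). The summed signal of the list was 152400 to 155700 units in double-null and 149200 to 151400 units in Hopx-null ventricles.

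Most genes of oxidative phosphorylation had slightly lower signals in double-null ventricles. Of 28 tested, 23 were lower and 5 higher, with a median log2 fold change of -0.06, against 52.4% lower and a median of -0.0071 over all genes. Without overlap, 14 were lower and none higher, where 8.16% of all tested genes were lower. With arrays quantile normalised the count was 9. Ndufb10, a complex I subunit, had 16040, 15770 and 15620 units on double-null arrays, against 18940, 18490 and 17740 units on Hopx-null arrays (log2 fold change -0.22, SE 0.08, limma adjusted p = 0.541). Sdha, the catalytic subunit of complex II, had 18930, 18490 and 17810 units on double-null arrays, against 19650, 20340 and 20210 units on Hopx-null arrays (log2 fold change -0.12, SE 0.04, limma adjusted p = 0.535). A second Sdha probe set of like brightness overlapped, at 18290 ± 297 units in double-null and 18110 ± 1040 units in Hopx-null ventricles (log2 fold change 0.02; SD, n = 3 each). Summed over the list, the signal was 583300 to 590600 units in double-null and 600800 to 619600 units in Hopx-null ventricles. In Hdac2-null against wild-type ventricles 26 of the 28 were lower, 4 of them without overlap, with a median of -0.03. In that pair 5327 of all 9662 tested genes were lower, and 5.68% were lower without overlap. No gene of the list was called in either pair.

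Genes of fatty acid uptake and oxidation had 17 of 23 tested lower, 8 of them without overlap, and a median log2 fold change of -0.10, where 52.4% of all tested genes were lower and 8.16% lower without overlap. Etfb, an electron carrier of beta-oxidation, had 6416, 7122 and 5542 units on double-null arrays, against 9313, 8785 and 7190 units on Hopx-null arrays (log2 fold change -0.41, SE 0.14, limma adjusted p = 0.535). Acadvl, the very long chain acyl-CoA dehydrogenase, averaged 4921 ± 490 units in double-null and 5924 ± 266 units in Hopx-null ventricles. Cd36, the fatty acid transporter, averaged 9404 ± 413 units in double-null and 10600 ± 716 units in Hopx-null ventricles (SD, n = 3 each). Its other probe sets overlapped between the groups, with log2 fold changes of -0.13 and 0.03. In the pair with Hopx present 11 of the 23 were lower and none without overlap, where 5.68% of all tested genes were lower without overlap.

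Genes of glycolysis and the hypoxia response had 21 of 26 tested lower, 8 of them without overlap (against 52.4% and 8.16% of all tested genes), with a median log2 fold change of -0.07. Ankrd37, a target of hypoxia-inducible factor, had 432.5, 368.8 and 367.4 units on double-null arrays, against 566.8, 608.6 and 569.2 units on Hopx-null arrays (log2 fold change -0.58, SE 0.15, limma adjusted p = 0.535). Pfkm, the muscle phosphofructokinase, averaged 4668 ± 174 units in double-null and 5551 ± 586 units in Hopx-null ventricles, and Pkm, pyruvate kinase, 14100 ± 345 units in double-null and 15260 ± 721 units in Hopx-null ventricles (SD, n = 3 each). The lower median of these metabolic lists held in sign under all 23 alternatives, and the counts without overlap were 6 to 9 for each of the fatty acid and glycolysis lists under the alternatives that kept all 6 arrays.

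**Figure D5:**
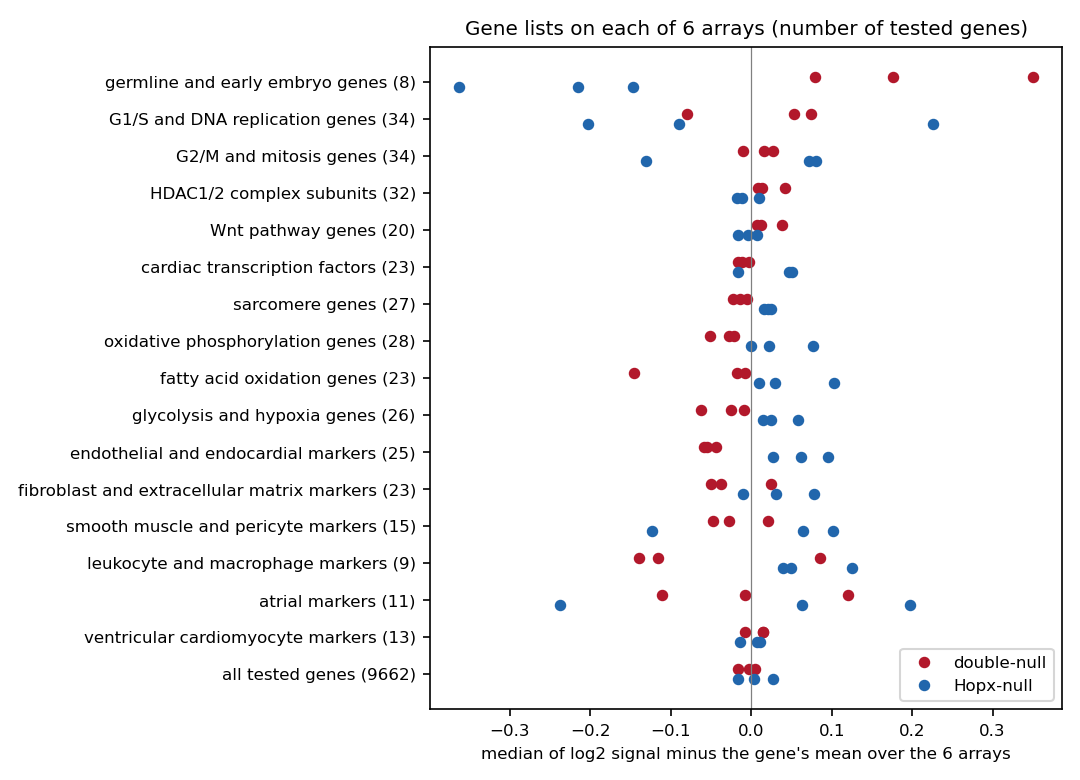
For 16 gene lists and all 9662 tested genes, the median over the list of log2 signal minus the gene's mean over the 6 arrays, with each point an array and the number of tested genes in brackets. Double-null points lie right of all Hopx-null points for the germline list. They lie left of them for the sarcomere, oxidative phosphorylation, fatty acid, glycolysis and endothelial lists, while the cell cycle lists overlap. The germline points cover 8 of 31 genes on the array, and of these Rec8 passed the floor on double-null arrays alone. The summed signal of the 31 overlapped, at 8271 to 8802 units in double-null and 7582 to 8906 units in Hopx-null ventricles.

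No contractile gene of the heart was called. Of 27 tested sarcomere genes, 11 were higher and 16 lower, with a median log2 fold change of -0.03, and 2 higher and 6 lower without overlap, against 6.19% and 8.16% of all tested genes. Myh6 and Myh7, the alpha and beta myosin heavy chains, had log2 fold changes of 0.02 and 0.0038, with SE 0.05 and 0.03. Tcap, the titin cap protein of the Z-disc, had 741.7, 748.7 and 699.2 units on double-null arrays, against 1259, 1258 and 1070 units on Hopx-null arrays (log2 fold change -0.71, SE 0.17, limma adjusted p = 0.535). Mybpc3, cardiac myosin-binding protein C, averaged 18700 ± 333 units in double-null and 20850 ± 1120 units in Hopx-null ventricles, and Tnni3, the cardiac troponin I, 18900 ± 268 units in double-null and 20930 ± 796 units in Hopx-null ventricles (SD, n = 3 each). Tpm2 and Tpm4, tropomyosins, were higher without overlap, with log2 fold changes of 0.34 and 0.13 that did not pass. Other Tpm2 probe sets gave log2 fold changes of 0.43, without overlap, and 0.18 and 0.42, with overlap.

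Nppa, atrial natriuretic peptide, had 15440, 23040 and 25250 units on double-null arrays and 26200, 24350 and 27480 units on Hopx-null arrays, which overlapped (log2 fold change -0.32, SE 0.20, limma adjusted p = 0.704). Nppb, brain natriuretic peptide, had a log2 fold change of 0.07 with an SE of 0.17. Gata4, the cardiac transcription factor that Hopx and Hdac2 have been studied with, averaged 5690 ± 235 units in double-null and 5585 ± 349 units in Hopx-null ventricles (SD, n = 3 each). Of 17 tested Gata4 target genes, 7 were higher and 10 lower, with a median of -0.02, and of 23 cardiac transcription factors 10 were higher and 13 lower, with none called.

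No gene of the cell cycle lists was called. Of 34 G1/S and DNA replication genes tested, 19 were higher and 15 lower and none was separated. Their median log2 fold change of 0.04 became -0.04 without Hopx-null replicate 3 and 0.16 without Hopx-null replicate 1. Of 34 G2/M and mitosis genes, 21 were higher and 13 lower, 1 of them higher without overlap (6.19% of all tested genes were). Cdk4, a cyclin D partner kinase, averaged 6438 ± 461 units in double-null and 6754 ± 1040 units in Hopx-null ventricles (SD, n = 3 each).

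Ccnd2, the D cyclin of the fetal myocardium, differed between its probe sets. The brightest probe set averaged 10140 ± 185 units in double-null and 10880 ± 1010 units in Hopx-null ventricles (log2 fold change -0.10, SE 0.08, limma adjusted p = 0.753). Another had 1977, 1867 and 1768 units on double-null arrays, against 2589, 2839 and 2780 units on Hopx-null arrays, without overlap (log2 fold change -0.55, SE 0.09, adjusted p over all probe sets = 0.281). Over the 7 probe sets of Ccnd2 the log2 fold changes ran from -0.55 to 0.06. What distinguishes the transcripts they detect is not given in the table of probe sets.

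Inpp5f, a phosphoinositide phosphatase that has been described as a target of Hdac2 in the adult heart, had 2308, 2873 and 1917 units on double-null arrays, against 1777, 1562 and 1738 units on Hopx-null arrays. The groups did not overlap (log2 fold change 0.47, SE 0.20, limma adjusted p = 0.583), and the log2 fold change was 0.02 in Hdac2-null against wild-type ventricles. Of 20 tested genes of the PI3K-Akt-Gsk3b axis, 13 were higher and 7 lower, and Inpp5f was the 1 that was separated. Over all tested genes 6.19% were higher without overlap.

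Markers of other cell types were compared because a ventricle holds several, and in bulk RNA fewer cells of a type and less RNA per cell cannot be told apart. All 25 endothelial and endocardial markers were tested, 19 lower and 6 higher, with 5 lower without overlap (8.16% of all tested genes were) and a median log2 fold change of -0.10. Vwf, von Willebrand factor, had 1279, 1231 and 1156 units on double-null arrays, against 1490, 1428 and 1359 units on Hopx-null arrays (log2 fold change -0.22, SE 0.07, limma adjusted p = 0.535). Icam2, an endothelial adhesion molecule, averaged 1225 ± 99.1 units in double-null and 1459 ± 161 units in Hopx-null ventricles (SD, n = 3 each). The summed signal of the list was 67340 to 70320 units in double-null and 70220 to 72930 units in Hopx-null ventricles, and in the pair with Hopx present 13 were higher and 12 lower. The part of these markers in the values of the metabolic lists was not tested.

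Of 9 tested leukocyte and macrophage markers, 8 were lower and 1 higher, with 2 lower without overlap (52.4% of all tested genes were lower and 8.16% without overlap), and 9 more were at or below the floor. Laptm5, a lysosomal membrane protein of blood cells, averaged 1637 ± 130 units in double-null and 1982 ± 126 units in Hopx-null ventricles (log2 fold change -0.28, SE 0.13, limma adjusted p = 0.616). The summed signal of the markers was 17430 to 19900 units in double-null and 20250 to 22370 units in Hopx-null ventricles, without overlap. The marker C1qb alone had 7019, 8089 and 8483 units on double-null and 8937, 8939 and 10260 units on Hopx-null arrays. The median over the 9 tested markers of log2 signal minus the gene's mean over the 6 arrays did overlap. That median was -0.1157, 0.0851 and -0.1392 on double-null arrays, and 0.0393, 0.0489 and 0.1256 on Hopx-null arrays. In Hdac2-null against wild-type ventricles 8 of the 9 were lower as well, 3 without overlap. In that pair 5.68% of all tested genes were lower without overlap. Ctsd, Ctsc and Vamp8 are also expressed by macrophages, and the part of these cells in the lower values of those genes was not tested.

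Fibroblast and extracellular matrix markers had 16 of 23 lower, 2 without overlap, with a median of -0.03, and smooth muscle and pericyte markers 9 of 15 lower, 4 without overlap. Of all tested genes 8.16% were lower without overlap, a share near that of the fibroblast list. Fbln2, a matrix protein of valves and vessels, averaged 137.3 ± 29.7 units in double-null and 191.2 ± 7.85 units in Hopx-null ventricles (SD, n = 3 each). Of 11 tested atrial markers 6 were higher and 5 lower, and their median of 0.09 reached -0.21 without double-null replicate 3. Of 16 tested genes of the interferon response and antigen presentation, 13 were lower and 2 higher, 3 lower without overlap, with a median of -0.18. That median was -0.31 without Hopx-null replicate 2, -0.0857 without double-null replicate 3 and -0.0255 with array weights. Of 20 tested Wnt pathway genes, 16 were higher and 3 lower, with a median of 0.05. Without overlap 1 was higher (6.19% of all tested genes were). None of these genes was called.

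Of 26 tested imprinted genes, 15 were higher and 11 lower, with 5 higher and 2 lower without overlap, against 6.19% and 8.16% of all tested genes. Peg12, a paternally expressed gene related to Frat Wnt regulators, had 203, 181.1 and 217.7 units on double-null arrays, against 148.3, 135.6 and 160.1 units on Hopx-null arrays (log2 fold change 0.44, SE 0.11, limma adjusted p = 0.535). In Hdac2-null against wild-type ventricles its log2 fold change was 0.05 and the groups overlapped.

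The genes beside Hdac2 on its chromosome were examined because flanking sequence can travel with a targeted allele. Of the 20 nearest tested genes, 10 on either side, none was called, 14 were higher and 6 lower, with a median log2 fold change of 0.03. Dse, a dermatan sulfate epimerase, had 4709, 4410 and 4932 units on double-null arrays, against 3917, 3454 and 4016 units on Hopx-null arrays (log2 fold change 0.30, SE 0.08, limma adjusted p = 0.535), and -0.02 in Hdac2-null against wild-type ventricles. Nt5dc1, a 5′-nucleotidase-domain protein, was also higher without overlap, and Fam229b was lower without overlap. Over all tested genes 6.19% were higher and 8.16% lower without overlap. Nt5dc1 was separated in the opposite direction in the pair with Hopx present, with an interaction of 0.46 (unadjusted p = 0.0109, limma adjusted p = 0.944).

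Around Tnni2, the 10 nearest tested genes had 5 higher and 5 lower, with none called and a median log2 fold change of -0.05. Igf2, the fetal growth factor of the imprinted domain nearby, and Lsp1, a leukocyte actin-binding protein next to Tnni2, were higher without overlap, with log2 fold changes of 0.05 and 0.08. Ctsd, the nearest tested gene on the other side, and Mrpl23, a mitochondrial ribosomal protein, were lower without overlap, with log2 fold changes of -0.34 and -0.26. Over all tested genes 6.19% were higher and 8.16% lower without overlap. The neighbours ran from -0.34 to 0.08, against 2.30 for Tnni2.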

How the data were processed

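RNA of 12 mouse ventricles at embryonic day 16.5 was hybridised to single-colour arrays, 3 for each of 4 genotypes that the labels give. The deposited table gives an unlogged intensity for every probe set on every array. The submitters' processing notes name MAS5 (no version given), but which summary made these values was not established here. The lowest signal on each array was 3.6 or 3.61 units. Of all values, 48.6% lay within 1 unit of 4.5. They were used with no further normalisation, so only differences within the table are given.

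Signals were raised to a floor of 82.85 units (0.1 times the average of the 12 trimmed means, 2% off each end) and log2 transformed. Of 45101 probe sets, platform annotation gave 34958 with 1 gene, 932 with several and 9211 with none. Symbols were updated through the RefSeq gene table of GRCm38.p6 (34754 matched). Each gene was represented by the probe set of highest mean. Genes reaching the 40th percentile (4.76 units, 12434 genes) and above the floor on at least 1 array were tested (9662). Limma 3.58.1 in R 4.3.3 fitted 1 coefficient per genotype over 12 arrays (8 residual degrees of freedom, intensity trend), with Benjamini-Hochberg adjustment over all tested genes and calls at an adjusted p under 0.05. The fit was tested on simulated data. Every adjusted p comes from limma. With 3 arrays a group, their number limits the precision. A p-value sets a difference between groups against the spread between arrays of the same genotype, taken over the 4 genotypes. Arrays do not overlap where all 3 of a group lie above all 3 of the other.

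The text names the called genes, the 10 of smallest p in each direction, up to 4 of smallest p in each list, a fixed set of cardiac and deacetylase genes, and the nearest neighbours of Hdac2 and Tnni2 of smallest p. Members, lists and alternatives were chosen with earlier results of these data known. Replicate numbers were checked as pairs: deviations of same-numbered double-null and Hopx-null arrays correlated at 0.287, -0.115 and 0.216, and the labels give only a number, so arrays were not paired. Alternatives were the floor, filter, probe sets, normalisation, variance model, array weights, arrays in the fit, a replicate block and leaving arrays out.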

Additional observations from a re-analysis of the deposited data

How the results depend on the processing

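Over 23 alternatives Hdac2 was called each time, and Tnni2 kept its direction but lost its call under 12. In double-null against Hopx-null the number of called genes was 1 (Hdac2) with no floor, with a floor of 2 times the main one, with only the 6 arrays fitted, with the mean of all probe sets of a gene and with the replicate block, against 2 as reported. Leaving out 1 array gave 1 to 3. The third gene was Ddit4 without wild-type replicate 3 and Cpne8, named after its values were seen, without Hopx-null replicate 1. The adjusted p of Tnni2 was 0.507 with no floor (log2 fold change 3.27), 0.168 with the higher floor (1.53), 0.16 with the 6 arrays alone and 0.346 with the mean of its probe sets (0.85). With the replicate block it was 0.0864, and 970 genes had an unadjusted p under 0.05, against 784 (479 to 1306 leaving out 1 array). Replicate numbers 1 and 3, but not 2, correlated best with their own number. The interaction gave 0 or, leaving out 1 array, up to 1 called gene (Hopx, without wild-type replicate 3). Hdac2-null against wild-type gave 4 with no floor (Hdac2, Tbrg3, Pstpip2 and Adgre1) and 1 with the mean of all probe sets (Hdac2), neither with Tnni2, and 2 to 4 leaving out 1 array. Among the named genes, values of near 0 changed sign. Leaving out 1 array gave log2 fold changes of -0.0246 to 0.0609 for Gata4, -0.0491 to 0.2546 for Nppb, -0.0165 to 0.0273 for Myh7 and -0.1769 to 0.0478 for Cdk4. Myh6 was -0.0262 with the mean of all probe sets. Without the high-Xist arrays Myh7 was -0.0337 and Cdk4 0.0112, and Cdk4 was 0.0067 with array weights. The causes were not tested. List medians moved as well: over the alternatives they ran from -0.3163 to -0.0112 for fast skeletal muscle genes, from -0.1196 to -0.0323 for glycolysis and hypoxia genes, from -0.1022 to -0.0509 for endothelial markers and from -0.0568 to -0.0238 for sarcomere genes. Signal near the floor limits Tdrkh, Cerox1, Meioc and Tnni2.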

Other observations

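Hbb-y, an embryonic globin of primitive red cells, had 47.4, 16.2 and 64.7 units on double-null arrays, all below the floor, and 427, 4.89 and 5.70 units on Hopx-null arrays. In Hdac2-null ventricles it had 1209, 985.4 and 218.8 units, against 7.66, 4.84 and 123 units in wild-type ventricles. Its interaction was -3.55 on the log2 scale (unadjusted p = 0.00366, limma adjusted p = 0.944). Single arrays carry much of these values.

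Of 5 tested valve and outflow cushion markers, 3 were higher and 2 lower, 2 of them higher without overlap (6.19% of all tested genes were), and none was called. Hapln1, a hyaluronan link protein of the cushions, had 801.1, 849.3 and 949.4 units on double-null arrays, against 746.9, 416.2 and 780.8 units on Hopx-null arrays (log2 fold change 0.47, SE 0.28, limma adjusted p = 0.687). Sox9, a transcription factor of cushion mesenchyme, had 619.6, 613.1 and 630.2 units on double-null arrays, against 554.4, 557.7 and 539.6 units on Hopx-null arrays (log2 fold change 0.17, SE 0.12, limma adjusted p = 0.716). A second Sox9 probe set averaged 198.3 ± 1.85 units in double-null and 198 ± 0.765 units in Hopx-null ventricles (log2 fold change 0.002; SD, n = 3 each). Of 30 neuronal genes that the repressor Rest targets, 27 were at or below the floor on all 6 arrays. Cplx2, a regulator of synaptic vesicle release, had 221.6, 181.8 and 192.1 units on double-null arrays, against 71.1, 176.5 and 145.5 units on Hopx-null arrays (log2 fold change 0.62, SE 0.24, limma adjusted p = 0.547). A second Cplx2 probe set overlapped between the groups (log2 fold change 0.19).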
